A study of Mus musculus with 12 samples.

Results

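Rps27l and 9 other genes, Rps27, Cdkn1a, Mdm2, Ccng1, Phlda3, Zmat3, Trp53inp1, Sesn1 and Trp53, were followed across the genotypes of a study of Xbp1 and Mist1 in mouse plasmablasts (PBs) and plasma cells (PCs). Rps27l was chosen from its own measured values, as its RNA was lower in cells without Mist1, and the other 9 genes were chosen by function: Rps27 is its paralog, Trp53 encodes p53, and the remaining 7 are well-known p53 targets or regulators. All 10 genes were found among the 24189 genes listed for the PBs and the 24732 listed for the PCs. Mist1 RNA was low in both mutant PB groups and in the mutant PCs, so the values of Rps27l in all contrasts are a description and carry no test, whereas the other 9 genes were tested.

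The tumour suppressor p53 is a transcription factor that is kept low by the ubiquitin ligase Mdm2 and accumulates upon DNA damage or disturbed ribosome synthesis. It binds a response element built from a pair of half-sites and activates genes for cell cycle arrest, apoptosis, DNA repair and its own feedback control. Rps27l and Rps27 encode closely related proteins of the small ribosomal subunit, and Rps27l is known as a direct p53 target. Mist1, the product of Bhlha15, is a basic helix-loop-helix protein of secretory cells that binds E-boxes (CANNTG).

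RNA was measured in 10 libraries of C57BL/6 cells, 2 for each of 5 groups, and Mist1 binding in 2 experiments. Splenic B cells of Bhlha15 CreER/CreER, Xbp1 fl/fl (control PBs) and Cd23-Cre Xbp1 fl/fl mice (Xbp1-deficient PBs) became PBs in 8 days of culture on irradiated 40LB feeder cells, a fibroblast line whose cells supply CD40 ligand and BAFF (the iGB system), and were sorted by a gate that included CD138+ and CD23-. Splenic PCs were taken 7 days after immunization with NP-KLH by a sort for TACI and CD138. Mist1 was mapped by Bio-ChIP-seq in PBs stimulated for 4 days with LPS. In the control PBs both Xbp1 alleles carry loxP sites and no Cre is present, and Cd23-Cre deletes them from the B cell stage onwards. Bhlha15 CreER/CreER PBs carry CreER in both Bhlha15 alleles and no floxed Xbp1, so they differ from control PBs in more than Mist1. The control PCs were labelled wildtype, while the methods of the study name Bhlha15 fl/fl mice, and the mutant PCs were Cd23-Cre Bhlha15 fl/fl. The Bio-ChIP-seq cells were Bhlha15 fl/fl Rosa26 BirA/BirA, in which Mist1 carries a tag that the BirA ligase biotinylates. The sources used here give no ages.

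Expression was deposited as TPM, a share of all transcripts scaled to the same total in each library. TPM correct for gene length, so levels can be compared between genes, and keep no record of depth. Bhlha15 stood at 176 and 159 TPM in control PBs, at 3.57 and 2.60 in Xbp1-deficient PBs, at 0.210 and 0.551 in Bhlha15 CreER/CreER PBs, at 258 and 242 in control PCs and at 14.4 and 16.6 in Cd23-Cre Bhlha15 fl/fl PCs. Hence, Mist1 RNA was low in the Xbp1-deficient PBs too. Xbp1 was at 3168 and 3043 TPM in control PBs and at 1981 and 2024 TPM in Xbp1-deficient PBs, a value over the whole gene and not over the deleted part alone. The 7 plasma cell markers summed to 26190 and 26770 TPM in control PBs, to 17950 and 17480 TPM in Xbp1-deficient PBs, to 23470 and 25620 TPM in Bhlha15 CreER/CreER PBs and to between 77880 and 85080 TPM in the PCs. RNA of other cells was also present: 10 fibroblast markers summed to between 956 and 1895 TPM in the PBs and to between 25.7 and 31.4 TPM in the PCs, and 11 neutrophil markers summed to between 4.05 and 138 TPM in the PBs and to between 479 and 1011 TPM in the PCs. In such bulk samples, fewer cells of a type and less RNA per cell cannot be told apart.

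The Rps27l gene lies on mouse chromosome 9 (mm9 chr9:66793893-66797323, plus strand), between Rab8b and Lactb, which are both on the minus strand. A Mist1 peak was called from the base after its start site onwards in experiment 1 and across the start site in experiment 2, and the common part of these peaks (chr9:66793894-66795583) runs over the first 3 exons. A second pair of peaks lies upstream and shares 352 bases. The first 300 bases of intron 1 (chr9:66793988-66794287, plus strand) are shown because they hold the only sequence like a p53 response element found within 2 kb of the start site, marked by capitals. Both Mist1 peaks contain it.
Rps27l intron 1: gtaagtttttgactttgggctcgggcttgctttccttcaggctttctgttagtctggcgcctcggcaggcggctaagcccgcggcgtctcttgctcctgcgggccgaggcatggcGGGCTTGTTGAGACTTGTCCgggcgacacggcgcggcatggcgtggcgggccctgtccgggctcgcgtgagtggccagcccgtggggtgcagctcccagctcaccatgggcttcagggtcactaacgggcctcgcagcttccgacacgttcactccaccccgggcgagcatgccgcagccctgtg
The element sought consists of 2 half-sites of 10 bases, each with C at the fourth and G at the seventh position, directly adjacent or 1 base apart, with at most 1 other mismatch to the p53 half-site. It reads the same on both strands. The central 300 bases of the common Mist1 part (chr9:66794589-66794888, plus strand) follow, with the E-box in capitals. This CAGCTG spans the border of intron 1 and exon 2, and 8 further E-boxes lie elsewhere in the common part.
Rps27l Mist1 peak centre: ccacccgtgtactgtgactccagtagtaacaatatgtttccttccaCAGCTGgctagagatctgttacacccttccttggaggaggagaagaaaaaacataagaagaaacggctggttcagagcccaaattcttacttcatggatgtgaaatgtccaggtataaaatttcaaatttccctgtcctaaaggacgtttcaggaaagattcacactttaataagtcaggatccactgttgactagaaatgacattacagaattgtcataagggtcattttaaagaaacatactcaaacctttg
Of 25635 parts shared by the peaks of both experiments, 89.2% held CANNTG, 39.5% held CAGCTG and 0.109% held a p53-like element in their central 300 bases. CAGCTG is also counted among CANNTG, and both motifs were searched on both strands, where they read alike.

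A match in sequence is a description and not a binding site. Within 2 kb of the first annotated start site, such an element was present at 217 of 11623 genes (1.87%), at 5 of the 53 genes of a wider p53 list (9.43%) and at 5 of the 10 genes described here, most of which were chosen as p53 targets. Cdkn1a, Ccng1, Zmat3 and Trp53inp1 are in both of the last counts, so the share of the wider list rests mostly on genes described here. The elements of these 4 genes are shown with 10 bases on either side, on the strand of the gene, so that they can be set beside that of Rps27l.
Rps27l, intron, 210 bases after the start site: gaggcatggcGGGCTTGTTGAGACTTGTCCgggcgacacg
Cdkn1a, upstream (chr17:29227873-29227892): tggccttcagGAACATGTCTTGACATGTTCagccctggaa
Ccng1, upstream (chr11:40568964-40568983): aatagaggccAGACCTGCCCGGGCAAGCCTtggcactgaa
Ccng1, intron (chr11:40568438-40568457): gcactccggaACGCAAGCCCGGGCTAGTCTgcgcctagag
Zmat3, intron (chr3:32263253-32263272): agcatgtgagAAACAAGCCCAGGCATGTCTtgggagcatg
Trp53inp1, upstream (chr4:11082259-11082279): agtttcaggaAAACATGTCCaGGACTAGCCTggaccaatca
The Zmat3 and Trp53inp1 elements have no mismatch, and each of the others has 1. The elements of Rps27l and Zmat3 and the upstream one of Ccng1 lie in Mist1 peaks of both experiments. The intronic Ccng1 element lies in a peak of experiment 2 alone, the Trp53inp1 element in a peak of experiment 1 alone, and the Cdkn1a element in neither. These letters were not found in this window at Rps27, Mdm2, Phlda3, Sesn1 or Trp53.

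**Figure D1:**
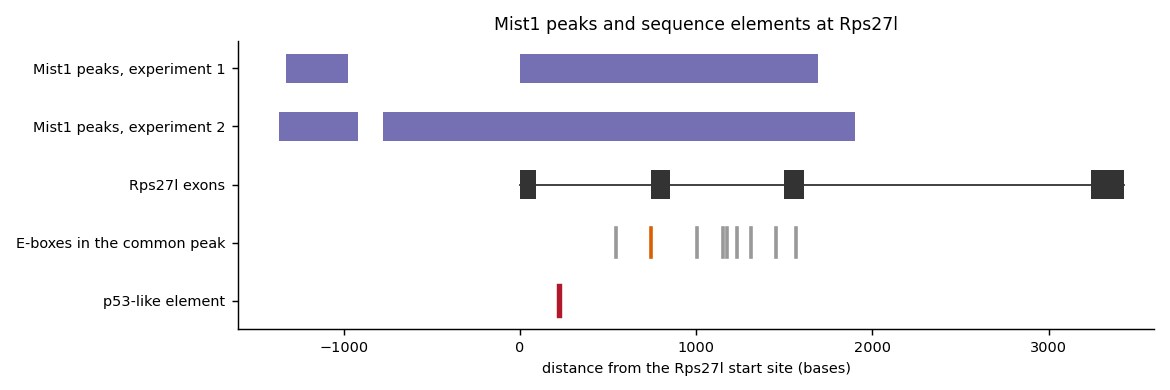
Mist1 peaks of both experiments, Rps27l exons, E-boxes in the common part of the peaks (CAGCTG in orange, others in grey) and the p53-like element, by distance from the Rps27l start site in bases. The larger peaks cover the start site region and exons 1 to 3, and the p53-like element lies 210 bases after the start site, before all 9 E-boxes.

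Mist1 regions common to both experiments lay within 1 kb of a start site at 8 of the 10 genes. They were absent there from Cdkn1a, whose nearest region was 8277 bases away, and from Phlda3, whose nearest region was 12794 bases away. Of the 53 genes of the p53 list without Rps27l, 35 (66.0%, 95% Wilson interval 52.6 to 77.3%) had such a region, compared with 7033 of 11623 genes tested (60.5%). The share over all genes lay within the interval of the list.

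Rps27l RNA differed between all 5 groups without overlap of any libraries. It was at 640 and 642 TPM in control PBs, at 516 and 486 TPM in Xbp1-deficient PBs and at 443 and 463 TPM in Bhlha15 CreER/CreER PBs. In PCs it was at 1024 and 1144 TPM in the controls and at 336 and 357 TPM in Cd23-Cre Bhlha15 fl/fl cells. The order from high to low was thus control PCs, control PBs, Xbp1-deficient PBs, Bhlha15 CreER/CreER PBs and Mist1-deficient PCs.

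**Figure D2:**
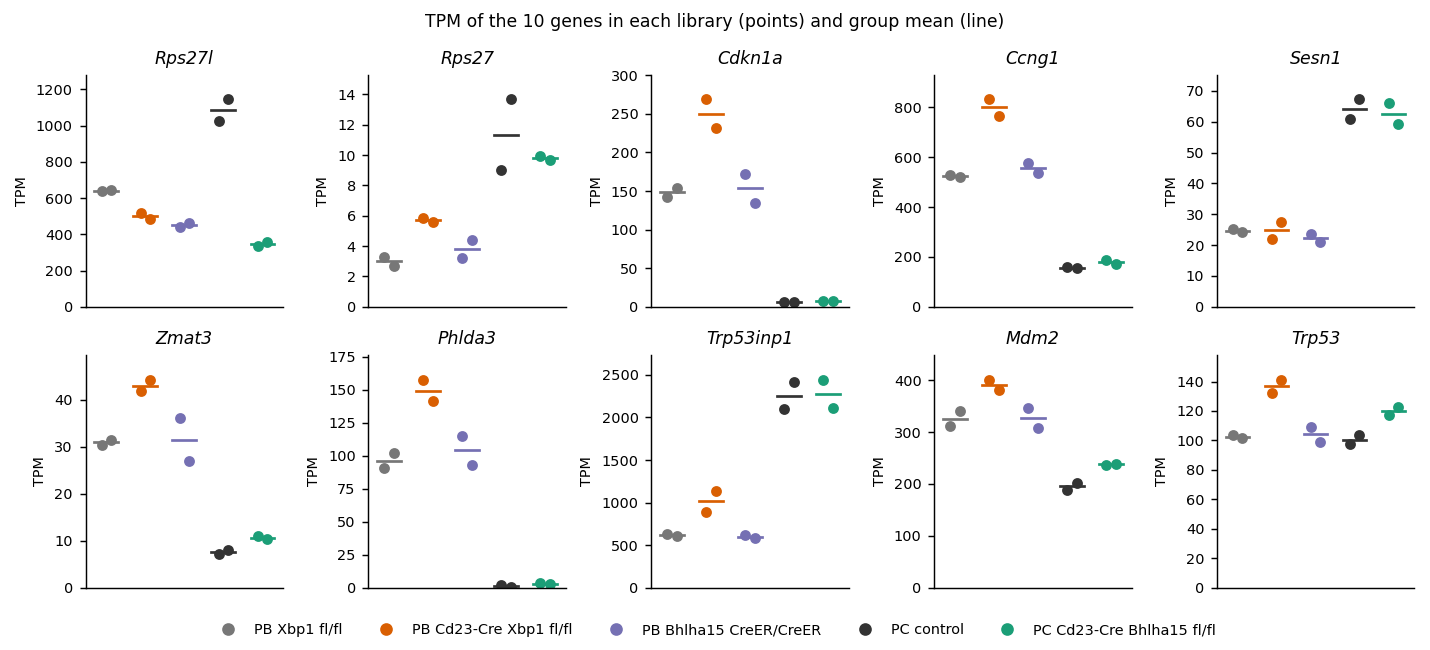
TPM as deposited of the 10 genes in each of the 10 libraries (points, 2 for each group) with the group mean (line), on linear axes from 0. Rps27l is lowest in the Mist1-deficient PCs at 336 and 357 TPM, whereas Cdkn1a, Phlda3, Ccng1 and Zmat3 are highest in the Xbp1-deficient PBs.

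On the log2 scale of scaled TPM plus 0.1, the difference of Rps27l was -1.62 (SE 0.066) in Mist1-deficient against control PCs and -0.46 (SE 0.097) in Bhlha15 CreER/CreER against control PBs. In Xbp1-deficient against control PBs, where Mist1 RNA was also low, the difference was -0.57 (SE 0.097), compared with -0.36 in deposited TPM and -0.32 after quantile normalization. All are given as a description, since Rps27l was chosen for its lower level without Mist1. The Xbp1 contrast uses the same control PB libraries as the Bhlha15 CreER/CreER contrast, so these differences are not independent. Its neighbours Rab8b and Lactb were at between 47.5 and 84.3 TPM and between 22.7 and 39.2 TPM in the 10 libraries, respectively.

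The genes whose profile was most like that of Rps27l were Zranb3, Pkd1l3, Htra2, Lztr1 and Gpr65, with Pearson correlations between 0.987 and 0.991 of scaled log2 values centred within each stage. These are the highest among 13229 genes over 10 libraries that share cultures, sorts and scaling, and no test is attached. None of the p53-related genes came near: Sesn1 had 0.14, Rps27 -0.028, Trp53inp1 -0.23, Cdkn1a -0.52, Ccng1 -0.61, Phlda3 -0.78, Trp53 -0.81, Zmat3 -0.86 and Mdm2 -0.92. Mdm2, the ligase that restrains p53, had the most opposite profile of the 9 genes, at rank 13089 of the 13229 from most to least alike. Its log2 difference was 0.30 in Mist1-deficient PCs, but 0.05 in Xbp1-deficient and 0.04 in Bhlha15 CreER/CreER PBs.

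Rps27, the paralog, was measured at very low levels. It stood at 3.28 and 2.71 TPM in control PBs, at 5.85 and 5.56 in Xbp1-deficient PBs, at 3.19 and 4.39 in Bhlha15 CreER/CreER PBs, at 9.0 and 13.7 in control PCs and at 9.92 and 9.65 in Mist1-deficient PCs. The libraries of Xbp1-deficient and control PBs did not overlap in TPM as deposited, with a log2 difference of 0.71 (SE 0.24, limma adjusted p = 0.055). The difference was 0.36 (SE 0.24, adjusted p = 0.64) in Bhlha15 CreER/CreER PBs and -0.16 (SE 0.18, adjusted p = 0.54) in PCs, where the libraries overlapped. Rps27 passed as higher in Xbp1-deficient PBs with TPM as deposited (0.91), without either Bhlha15 CreER/CreER library (0.71 in both fits) or without both (0.71), and as lower in Mist1-deficient PCs without control replicate 1 (-0.43).

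The Rps27 values are uncertain, as nearly all of its transcript has exact copies elsewhere in the genome. Of the 296 stretches of 50 bases, the read length, in the Rps27 transcript, 295 (99.7%) also occur outside the gene, compared with 120 of 450 (26.7%) for Rps27l, 199 of 1723 (11.5%) for Trp53 and at most 2.27% for the 7 other genes. The coding sequences of Rps27l and Rps27 are 255 bases each and differ at 61 positions (76.1% identity), with at most 11 identical bases in a row, so no read of this length within them fits both paralogs exactly. Among genes of other small subunit proteins, Rps12 averaged 32.5 TPM with 98.1% of its stretches found elsewhere, whereas Rps24 averaged 1021 TPM with 80.0% and Rps13 averaged 9.29 TPM with 38.5%. These 3 genes were chosen after their values were seen, and their levels did not follow the order of these shares. How reads with several positions were counted is not given in the sources used here, and its part in these levels was not tested. Rps27 and Zmat3 also carry a suffix in the deposited gene names whose meaning was not examined. In the annotation used, no exon of the 10 genes overlaps an exon of another gene.

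Of 31 other small subunit genes, 0 fell and 6 rose in Xbp1-deficient PBs, with a median log2 change of 0.24, compared with 0.00 over all genes. The share that rose was 19.4%, compared with 10.3% of all genes, of which 18% fell. In Mist1-deficient PCs 4 fell (12.9%, compared with 16.2% of all genes) and 1 rose (3.23%, compared with 13.3%), with a median of -0.05, and in Bhlha15 CreER/CreER PBs none passed.

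In the Xbp1-deficient PBs, the p53 targets Cdkn1a, Ccng1, Phlda3 and Trp53inp1 rose, whereas Rps27l was lower. Thus, 4 of the 9 tested genes rose and 0 fell at an adjusted p under 0.05, compared with 10.3% of all 12125 genes that rose and 18% that fell. Cdkn1a, which encodes the cell cycle inhibitor p21, was at 143 and 154 TPM in control PBs and at 269 and 231 TPM in Xbp1-deficient PBs. The libraries did not overlap in TPM as deposited, and the log2 change was 0.54 (SE 0.10, limma adjusted p = 0.0050).

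Ccng1, which encodes a cyclin that acts in p53 feedback, was at 528 and 520 TPM in control PBs and at 832 and 767 TPM in Xbp1-deficient PBs. It rose by 0.40 on the log2 scale (SE 0.089, limma adjusted p = 0.011). Phlda3, an inhibitor of Akt signaling, was at 90.7 and 102 TPM in control PBs and at 157 and 141 TPM in Xbp1-deficient PBs, and rose by 0.43 (SE 0.089, limma adjusted p = 0.0084). Trp53inp1, a stress protein linked to apoptosis and autophagy, was at 633 and 605 TPM in the former and at 890 and 1135 TPM in the latter PBs, and rose by 0.49 (SE 0.12, limma adjusted p = 0.019). The libraries of Ccng1, Phlda3 and Trp53inp1 did not overlap in TPM as deposited, where the median log2 change over all genes was 0.21. The same held for Fas and Chek2, with log2 changes of 0.0005 and -0.0048 after scaling. The share of all genes without overlap was not counted. With a library left out, the log2 change was 0.33 to 0.46 for Ccng1 and 0.34 to 0.50 for Phlda3. It was 0.31 to 0.66 for Trp53inp1 and 0.42 to 0.65 for Cdkn1a. The calls of Ccng1, Phlda3 and Trp53inp1 were lost in some of these fits, unlike that of Cdkn1a. In the fits that lost them a group had 1 library, and fewer of all genes passed. Trp53inp1 also did not pass without the variance trend (0.49, limma adjusted p = 0.062).

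The remaining genes did not pass the test in Xbp1-deficient PBs. Zmat3, an RNA-binding protein, was at 30.4 and 31.5 TPM in control PBs and at 41.9 and 44.2 TPM in Xbp1-deficient PBs (log2 difference 0.27, SE 0.10, limma adjusted p = 0.084). Trp53 itself was at 104 and 101 TPM in the former and at 133 and 141 TPM in the latter (0.21, SE 0.074, adjusted p = 0.074). Mdm2 was at 311 and 340 TPM in the former and at 400 and 381 TPM in the latter, with a log2 difference of 0.05 (SE 0.075, adjusted p = 0.64) after scaling. Sesn1, a regulator of mTORC1 signaling, was at 25.3 and 24.2 TPM in the former and at 22.1 and 27.5 TPM in the latter (-0.21, SE 0.12, adjusted p = 0.22). Scaling mattered for this contrast, as the median log2 change over all genes was 0.21 with TPM as deposited and 0.00 after scaling. Without scaling, Rps27, Mdm2, Zmat3 and Trp53 passed as higher at 0.91, 0.26, 0.47 and 0.41, so that 8 of the 9 genes then passed. More of all genes also passed as higher without scaling. After quantile normalization, the median over all genes was 0.07. Mdm2, Zmat3 and Trp53 then passed as higher at 0.26, 0.37 and 0.35, and Rps27 did not pass. Zmat3 also passed without either Bhlha15 CreER/CreER library (0.27 in both fits) and Trp53 without replicate 2 of these (0.21).

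**Figure D3:**
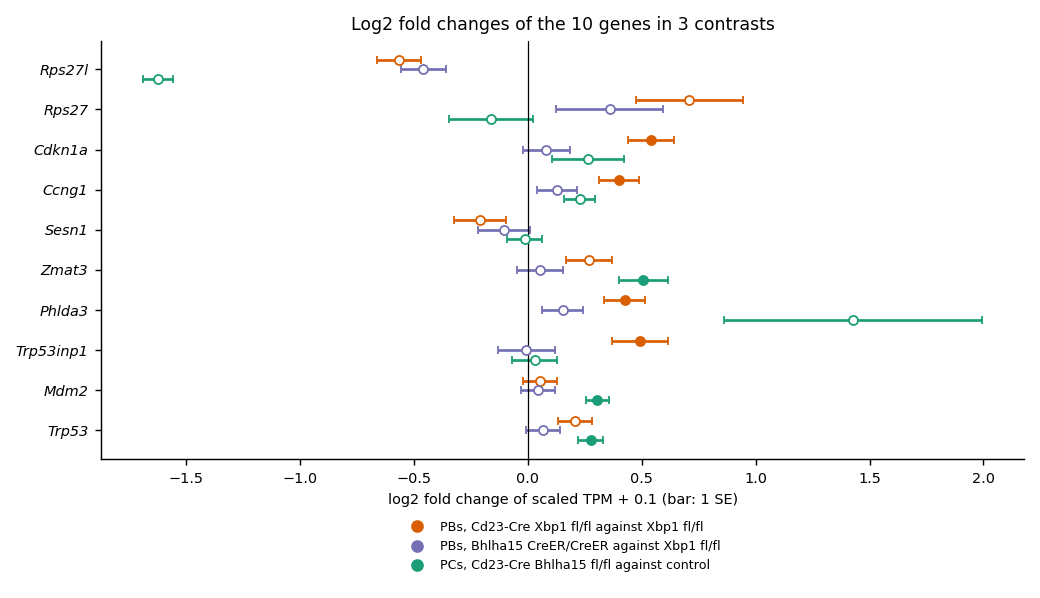
Log2 fold changes of the 10 genes in 3 contrasts (points) with 1 SE (bars) on the scale of scaled TPM plus 0.1, where filled points passed an adjusted p under 0.05 and Rps27l carries no test. Rps27l lies left of 0 in all 3 contrasts, at -0.57, -0.46 and -1.62, and the genes that passed among the others lie right of it.

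The wider p53 list held 53 genes without Rps27l, among them 8 of the genes above, of which 52 were tested in the PBs. In Xbp1-deficient PBs 18 of them rose (34.6%, compared with 10.3% of all genes) and 1 fell (1.92%, compared with 18%), and the median log2 change was 0.18, compared with 0.00. With TPM as deposited 30 rose and 0 fell, while over all genes more also passed as higher and fewer as lower. Without a control or an Xbp1-deficient library, 1 was left in its group. Fewer listed genes then passed as higher, as did fewer of all genes. Of the genes for cell death 8 of 15 rose, of those for arrest 3 of 11, of those for repair and metabolism 4 of 10, and of the feedback and family genes 3 of 16. Among the genes that passed, the largest changes were those of Trp73, a p53 family member, which went from 2.88 and 2.93 TPM to 7.93 and 8.61 TPM (1.27, SE 0.17, limma adjusted p = 0.00096), of Bbc3, which encodes the death protein Puma and went from 22.6 and 23.98 to 60.0 and 57.9 TPM (1.13, SE 0.099, adjusted p = 7.6e-05), and of Sesn2, a stress-induced sestrin, which went from 51.3 and 55.6 to 133 and 134 TPM (1.11, SE 0.068, adjusted p = 1.0e-05). Mdm4, an inhibitor of p53, rose by 1.10 and Rrm2b, a ribonucleotide reductase subunit, by 1.05. Ddit4, an mTORC1 inhibitor (0.57), Aen, an exonuclease (0.52), and Tnfrsf10b, a death receptor (0.47), rose less. The only gene that fell was the damage kinase Atm (-0.37, SE 0.11, adjusted p = 0.039), from 12.4 and 12.8 TPM to 10.8 and 11.7 TPM. The death gene Perp, at 0.3545 and 0.568 TPM in control PBs and at 1.54 and 1.55 TPM in Xbp1-deficient PBs, had a log2 difference of 1.39 (SE 0.54, limma adjusted p = 0.091) and did not pass. Several of these genes, such as Bbc3, Sesn2 and Ddit4, are also known to respond to ER stress through other factors than p53.

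**Figure D4:**
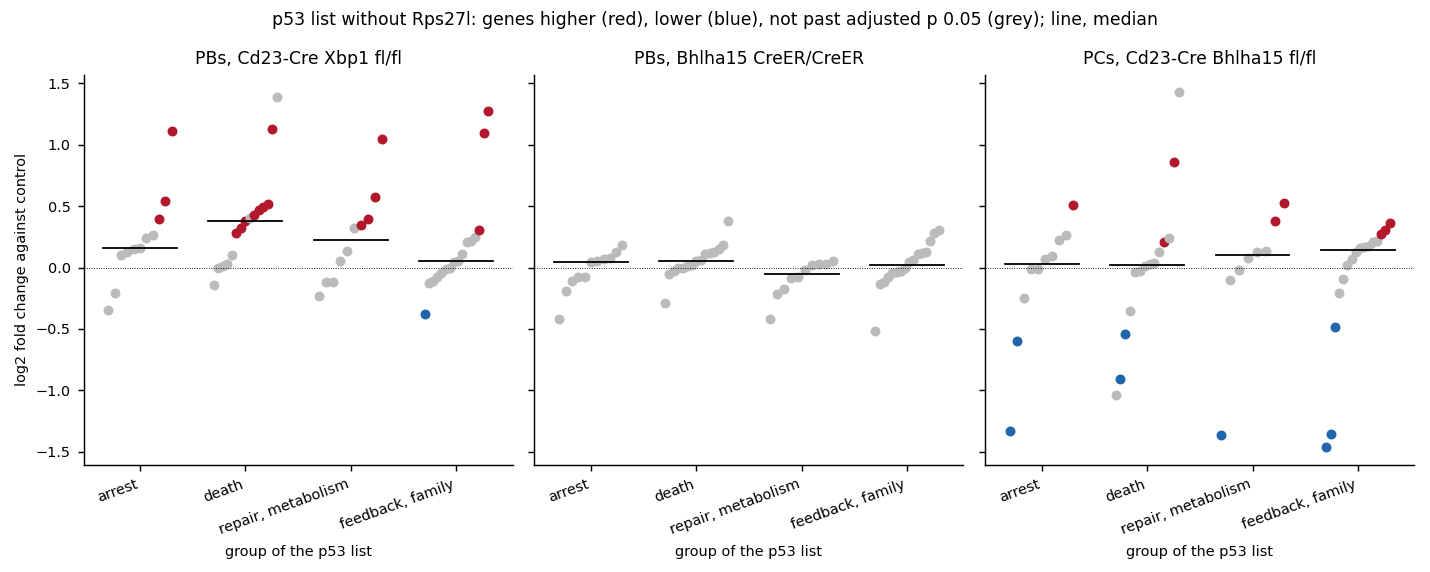
Log2 fold changes of the p53 list without Rps27l in 3 contrasts, by group of the list. Each point is a gene, in red where it passed as higher, in blue where it passed as lower and in grey otherwise, and the line is the group's median. The list counts 18 higher and 1 lower in Xbp1-deficient PBs, none in Bhlha15 CreER/CreER PBs and 8 each way in Mist1-deficient PCs.

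RNA of fibroblast type differed between the PB libraries and was highest in the Xbp1-deficient PBs. The summed fibroblast markers were at 1201 and 1435 TPM in control PBs, at 1895 and 1744 TPM in Xbp1-deficient PBs and at 1585 and 956 TPM in Bhlha15 CreER/CreER PBs. In TPM as deposited, Cdkn1a and Mdm2 had the same order as this sum in all 6 libraries, and 3 of the 52 listed genes did (5.77%, compared with 3.92% of all genes). With the genes scaled and the marker sum left as deposited, Cdkn1a alone of the 52 kept this order (1.92%, compared with 1.05% of all genes). The order against a scaled marker sum was not examined. Within Bhlha15 CreER/CreER PBs, the sum in replicate 1 was 1.66 times that in replicate 2. In the scaled values of these libraries, 5 of the 9 genes and 29 of the 52 listed genes (55.8%, compared with 43.3% of all genes) were higher in replicate 1, and the median ratio over the list was 1.02. Col1a1 (460 to 904 TPM) and Col1a2 (252 to 480 TPM) led the list in PBs, while Pdgfrb stayed at or below 0.200 TPM. After scaling, 1 of the 9 tested fibroblast markers rose (Thy1) and 1 fell (Lum) in Xbp1-deficient PBs, with a median log2 change of 0.12. The 7 tested neutrophil markers all rose in Xbp1-deficient PBs, with sums of 11.7 and 10.4 TPM in control and of 138 and 137 TPM in Xbp1-deficient PBs, S100a8 leading at 45.7 and 43.6 TPM and Elane at 0. Of the 7 plasma cell markers, 3 fell and 0 rose in Xbp1-deficient PBs, namely Xbp1, Jchain (-0.86) and the BAFF and APRIL receptor gene Tnfrsf17 (-0.97). The part of feeder or other cells and of plasma cell genes in the p53 target RNA was not tested.

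**Figure D5:**
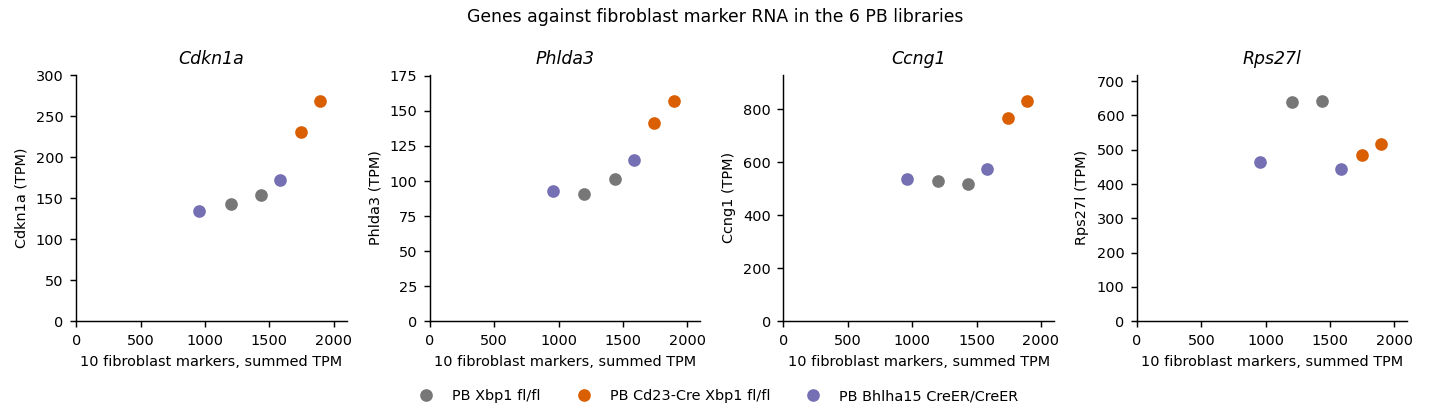
TPM of Cdkn1a, Phlda3, Ccng1 and Rps27l (vertical axes) against the summed TPM of 10 fibroblast markers (horizontal axes) in the 6 PB libraries, coloured by genotype. Cdkn1a goes from 134 to 269 TPM in the same order as the marker sum from 956 to 1895 TPM, and Rps27l is highest in both control PB libraries, at 640 and 642 TPM.

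In Bhlha15 CreER/CreER PBs, none of the 9 genes and none of the 52 listed genes passed the limma test, against 0.272% of all genes that fell and 0.0495% that rose, so that few calls were made among any genes. At an unadjusted p under 0.05 there were 0 of the 9 and 5 of the 52 genes (9.62%, compared with 10.4% of all genes). Cdkn1a was at 172 and 134 TPM, on either side of the control PB libraries, with a log2 difference of 0.08 (SE 0.10). Ccng1 was at 576 and 537 TPM (0.13, SE 0.089), Phlda3 at 115 and 93.2 TPM (0.15, SE 0.089) and Mdm2 at 346 and 307 TPM (0.04, SE 0.075). Of these, Ccng1 alone did not overlap with the controls. Zmat3 was at 36.1 and 27.0 TPM (0.05, SE 0.10), Trp53inp1 at 619 and 578 TPM (-0.01, SE 0.12), Sesn1 at 23.7 and 21.0 TPM (-0.11, SE 0.12) and Trp53 at 109 and 99.1 TPM (0.06, SE 0.074). The libraries of Sesn1 lay below those of the controls, and the others overlapped. The median over the list was 0.02, compared with 0.00 over all genes.

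In Mist1-deficient PCs, Mdm2, Trp53 and Zmat3 rose, by at most 1.42-fold, and Rps27l was at 0.325 times its control level. With these 3 genes, 3 of 9 rose and 0 fell, compared with 13.3% of all 12028 genes that rose and 16.2% that fell. Mdm2 was at 188 and 202 TPM in control and at 237 and 239 TPM in Mist1-deficient PCs (0.30, SE 0.052, limma adjusted p = 0.011). Trp53 was at 97.3 and 104 TPM in control and at 117 and 123 TPM in Mist1-deficient PCs (0.27, SE 0.057, adjusted p = 0.019). It did not pass without the variance trend (limma adjusted p = 0.066). Zmat3 was at 7.18 and 7.93 TPM in control and at 10.9 and 10.3 TPM in Mist1-deficient PCs (0.51, SE 0.11, adjusted p = 0.020). The groups did not overlap for any of the 3 genes, a separation that was not counted over all genes. All 3 calls were lost without either Mist1-deficient library, where Mdm2 had 0.32 and 0.30, Trp53 0.32 and 0.24, and Zmat3 0.47 and 0.55.

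Ccng1 was at 158 and 154 TPM in control and at 188 and 173 TPM in Mist1-deficient PCs, which did not pass (0.23, SE 0.068, limma adjusted p = 0.054). It passed with quantile normalization (0.25, adjusted p = 0.035) and with a filter at 5 TPM in 2 libraries (0.23, adjusted p = 0.046). Without control replicate 1 the difference was 0.28. Cdkn1a was low, at 6.85 and 5.59 TPM in control and at 7.59 and 7.14 TPM in Mist1-deficient PCs (0.26, SE 0.16, adjusted p = 0.25). Phlda3 was near the limit of these data, at 2.01 and 0.561 TPM in control and at 3.33 and 2.78 TPM in Mist1-deficient PCs (1.43, SE 0.57, adjusted p = 0.11), and it passed without control replicate 1 (2.29). The groups did not overlap for these 3 genes. Trp53inp1 (2095 and 2412 TPM in control, 2438 and 2107 TPM in Mist1-deficient PCs) and Sesn1 (60.9 and 67.3 TPM in control, 66.0 and 59.2 TPM in Mist1-deficient PCs) overlapped, with log2 differences of 0.03 (SE 0.099) and -0.01 (SE 0.075).

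The wider p53 list split in Mist1-deficient PCs. Of 48 tested genes, 8 fell (16.7%, compared with 16.2% of all genes) and 8 rose (16.7%, compared with 13.3%), and the median was 0.07, compared with 0.01 over all genes. The list thus stood near the background in both directions. Leaving out a Mist1-deficient library left 1 in its group, and fewer listed genes then passed as higher. Calls over all genes also varied when a PC library was left out. Atm fell from 21.4 and 19.3 TPM to 7.25 and 7.19 TPM (-1.46, SE 0.11, limma adjusted p = 0.0016), Ddit4 from 100.1 and 89.4 TPM to 38.9 and 33.7 TPM (-1.36, SE 0.11, adjusted p = 0.0016) and Gadd45a, a stress-induced growth arrest gene, from 47.5 and 36.9 TPM to 15.3 and 17.5 TPM (-1.33, SE 0.15, adjusted p = 0.0036). Trp73 (-1.35), the death receptor gene Fas (-0.91), the antiproliferative gene Btg2 (-0.60) and Bbc3 (-0.54) also fell. Tnfrsf10b (0.86) and the repair gene Ddb2 (0.53) rose. In the same contrast, 9 of 16 cycling genes fell and 0 rose, with a median of -0.37 and summed levels of 1353 and 1438 TPM in control and 1087 and 1019 TPM in Mist1-deficient PCs. T cell markers summed to 85.6 and 86.3 TPM in control and to 99.6 and 128 TPM in Mist1-deficient PCs, 2 of 9 rising. Of the 7 plasma cell markers, Sdc1 (0.44) and Irf4 (0.38) rose and Tnfrsf17 (-0.24) fell. Fibroblast markers summed to at most 31.4 TPM in the PCs, with Col1a1 at or below 0.451 TPM. The part of these cells and of cycling in the changes was not tested.

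The difference between the Mist1 contrasts of PCs and PBs was tested for the 9 genes in a model of all 10 libraries, in which 6.11% of 13230 genes passed (4.17% lower and 1.94% higher in the PC contrast). None of the 9 genes passed (3 at an unadjusted p under 0.05, as did 22.0% of all genes), with Mdm2 (0.28, SE 0.080, limma adjusted p = 0.081), Zmat3 (0.47, SE 0.15, adjusted p = 0.099) and Trp53 (0.22, SE 0.075, adjusted p = 0.12) closest. The contrasts differ in allele, control genotype and cell source as well as in stage. Phlda3 passed without control PC replicate 1 (2.15) and Zmat3 without Bhlha15 CreER/CreER replicate 1 (0.62). For Rps27l, the difference was -1.15 (SE 0.11) as a description.

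Levels also differed between the stages, which cannot be told apart from culture, immunization, sort and control genotype. Phlda3 averaged 96.2 ± 7.68 TPM (SD, n = 2) in control PBs and 1.28 ± 1.02 TPM (SD, n = 2) in control PCs, and Cdkn1a averaged 148 ± 7.68 and 6.22 ± 0.892 TPM, respectively. These were ratios of 74.9 and 23.8. Zmat3, Ccng1 and Mdm2 were 4.10, 3.36 and 1.67 times as high in the PBs. Trp53inp1, Sesn1 and Rps27l were 3.64, 2.59 and 1.69 times as high in the PCs, and Trp53 was nearly equal at 103 and 100.4 TPM. The p53 targets were therefore not all higher in the same stage. In all 6 PB libraries, Cdkn1a lay between 134 and 269 TPM and Phlda3 between 90.7 and 157 TPM, the stage in which fibroblast marker RNA was present at 956 TPM and more.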

How the data were processed

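RNA-seq was deposited for 10 libraries and Mist1 Bio-ChIP-seq for 2 experiments. Per the study's methods and the submitters' processing notes, the authors aligned 50-base reads to mm9 with STAR 2.4.2, counted them with featureCounts 1.5 and deposited TPM, without immunoglobulin and T cell receptor genes. Peaks were called by the authors with MACS, and the deposited lists give positions alone. TPM keep no depth, so no counting interval could be computed and the depth is unknown.

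TPM were scaled by the median of ratios within a model, and genes with at least 1 TPM in 2 libraries were fitted as log2(scaled TPM + 0.1) with limma 3.58.1 in R 4.3.3 (lmFit, eBayes with trend), which was tested on simulated data. The 6 PB and the 4 PC libraries formed a model each. The two-sided p-values were adjusted by Benjamini-Hochberg over every gene tested in a contrast, with 0.05 as the threshold. Fold changes on this scale understate those of low genes. Labels name separate libraries and not animals, so the p-values measure the spread between these samples.

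The 10 genes and all lists were chosen with earlier results of these data known. Named genes were the 10 genes, Bhlha15 and Xbp1, up to 10 listed p53 genes per contrast that passed with separated libraries, the 5 genes most like Rps27l and its neighbours. Overlap of libraries was judged in TPM as deposited, and its share over all genes was not counted. Atm and Perp in PBs, the small subunit genes and the marker genes given singly were named after their values were seen. Regions sharing at least 1 bp were merged (bedtools 2.31.1) and set against GENCODE M1 start sites, and sequences were read from mm9. Alternatives were other scalings, pseudocounts, filters and variance models, only the groups compared, each library left out, and other distances and overlaps of regions.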

Additional observations from a re-analysis of the deposited data

Results flagged for a closer look

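Of the p53 list, 4 genes differed between the Mist1 contrasts of PCs and PBs by the limma test of the difference itself, and each was lower in the PC contrast. These are 7.69% of the 52 genes tested, compared with 4.17% of all genes that were lower and 6.11% that passed in either direction. The count of lower genes was 2 without the variance trend, and with quantile normalization 3 genes were higher. With a library left out, the count of lower genes moved both ways, as did that over all genes, and some listed genes passed as higher. The log2 difference was -0.93 for Atm (SE 0.15, adjusted p = 0.014), -1.13 for Ddit4 (SE 0.20, adjusted p = 0.017), -0.85 for Fas (SE 0.095, adjusted p = 0.0052) and -1.24 for Gadd45a (SE 0.22, adjusted p = 0.017). In Bhlha15 CreER/CreER PBs, Atm was at 9.42 and 7.69 TPM, Ddit4 at 78.7 and 55.4 TPM, Fas at 83.1 and 84.8 TPM and Gadd45a at 32.4 and 38.4 TPM, compared with 12.4 and 12.8, 72.7 and 85.7, 87.1 and 92.0, and 35.5 and 41.3 TPM in control PBs. Fas passed in all 17 alternative fits, while Atm was lost in 5, Ddit4 in 4 and Gadd45a in 3 of them. The contrasts also differ in allele, control genotype and cell source, which cannot be told apart from the stage.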

How the results depend on the processing

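No paired analysis was possible because the labels give no replicate numbers, and the numbers used here follow accession order and only name the libraries. In Xbp1-deficient PBs, 30 of the p53 list rose and 0 fell with TPM as deposited, 0 fell with no filter on low values, and leaving out a library gave 8 to 24 that rose and 0 to 1 that fell. In Bhlha15 CreER/CreER PBs, few genes passed with any library left out, in the list and over all genes. In Mist1-deficient PCs, 5 rose with no filter and 3 without the variance trend, and leaving out a library gave 0 to 9 that rose and 4 to 8 that fell. Of the 9 genes, 2 passed in the difference between the Mist1 contrasts with quantile normalization, and 0 to 1 with a library left out. Mist1 regions within 10 kb were found at 79.2% of the p53 list (Wilson interval 66.5 to 88%). The share over all genes at this distance was 72.3%, which lay within the interval of the list. The cause of these shifts was not tested.

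Signs turned for genes that had not passed with all libraries, of which Rps27 in Mist1-deficient PCs passed as lower without control replicate 1. With quantile normalization, Mdm2 in Bhlha15 CreER/CreER PBs had -0.021 and Sesn1 in Mist1-deficient PCs 0.0093. With a library left out, Cdkn1a went from -0.017 to 0.19, Zmat3 from -0.072 to 0.19 and Trp53inp1 from -0.081 to 0.069 in Bhlha15 CreER/CreER PBs. In Mist1-deficient PCs, Rps27 went from -0.43 to 0.11, Trp53inp1 from -0.068 to 0.13 and Sesn1 from -0.087 to 0.062, and Trp53inp1 in the difference of contrasts from -0.049 to 0.16. Rps27l kept its sign in every fit, at -0.62 to -0.52 in Xbp1-deficient PBs and -0.57 to -0.34 in Bhlha15 CreER/CreER PBs with a library left out. Where an arm was left with 1 library, it was assumed to vary like the other groups. With 2 libraries for each group and no depth, changes of genes below a few TPM, such as Phlda3 in PCs, are not well measured.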
